A study of Arabidopsis thaliana with 18 samples.

Results

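The UDP-glycosyltransferases described here are the Arabidopsis thaliana genes named UGT followed by a family number, a letter and a gene number. They were chosen by name, with earlier results of these data known. They are the probe sets annotated with exactly 1 gene whose symbol or synonym has that form, with GT72B1 (UGT72B1) added. The rule gave 51 genes from 12 numbered families, out of 13356 genes that a probe set named alone, and each had a single probe set. Another 13 genes of this form in the gene table were not named alone by a probe set and were not analysed here.

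RNA from whole 7-day-old seedlings was measured on 18 Affymetrix arrays, in 6 groups of 3 that the labels call independent biological replicates. Seedlings of the wild type Col-0 and of the mutants sav3-2 and sav1-1, both in the Col-0 background, grew at 22 °C in continuous simulated white light, for which 13 µmol m-2 s-1 of red were mixed with 1.23 of blue. The white light groups (Wc) stayed in that light, and the low R:FR groups (SH) received 1 h of simulated shade, in which 20.2 µmol m-2 s-1 of far-red brought the red to far-red ratio to 0.7. SAV3 is the gene TAA1, an aminotransferase that makes the precursor of auxin from tryptophan. No probe set used here named TAA1 alone, so the sav3-2 label was not checked on its own gene, and the labels do not name the gene altered in sav1-1.

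UDP-glycosyltransferases move a sugar, most often glucose, from a UDP-sugar onto a small molecule. In plants their acceptors include hormones, flavonoids, the alcohols from which lignin is built, sterols and foreign chemicals, and the sugar usually makes the acceptor more soluble, less active or fit for storage in the vacuole. Shade is sensed by phytochromes as a fall in the ratio of red to far-red light, and seedlings answer it by elongating, in part through newly made auxin.

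All levels are log2(intensity + 16) after quantile normalization, a scale whose lowest possible value is 4, and all differences are on that scale, so changes of dim genes are understated. The level of a probe set was never set against that of another gene. Of the 51 members, 36 passed the filter on dim probe sets and were tested with limma on all 18 arrays. A call is an adjusted p under 0.05, with Benjamini-Hochberg adjustment over all 17125 probe sets tested in each comparison. Of the tested members, 27 were above the filter's floor on every array and 9 on fewer, and none was above it in a single group only.

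The other 15 members were not tested, and 10 of them were above the floor on none of the 18 arrays. Their values ran from 4.04 to 5.31. They were UGT71B6, UGT71B8, UGT73C1, UGT73C2, UGT76E1, UGT76E12, UGT78D3, UGT79B1, UGT79B6, UGT84A1, UGT84A3, UGT84B1, UGT84B2, UGT85A3 and UGT85A7. UGT84B1 and UGT84B2, which conjugate auxin, and UGT71B6, which glucosylates abscisic acid, were thus too dim for a comparison between lights or genotypes.

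Replicate arrays of a group correlated at 0.973 to 0.987 over all probe sets, and in each group the array numbered 3 stood highest on the second principal component, which held 12.3% of the variance. The green tissue genes RCA and PSAE-1 lay between 12.53 and 13.12 on all arrays, and the root hair genes EXPA7 and EXPA18 between 5.17 and 6.37. None of these markers, nor the root gene PYK10, was called in a response to light or a comparison of genotypes. IAA29, a shade-induced auxin response gene, rose after low R:FR by 3.38 in Col-0, 2.74 in sav3-2 and 3.59 in sav1-1. HAT2, another gene induced by shade, rose by 2.17, 0.98 and 2.34. XTH33, a cell wall enzyme gene, rose by 1.01 in Col-0 and 1.13 in sav1-1, and its difference of 0.43 in sav3-2 did not pass (adjusted p = 0.522). In these whole-seedling samples, fewer cells of a type and less RNA per cell cannot be told apart.

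After 1 h of low R:FR, 3 members fell and none rose. UGT88A1 fell in Col-0, and UGT88A1, UGT72B1 and UGT72B3 fell in sav1-1. In sav3-2 no member was called by limma. The single member called lower in Col-0 stood among 36 tested, beside 0.175% of all probe sets called lower and 0.94% called higher. In sav1-1 the calls were 3 of 36, beside 0.467% called lower and 1.38% higher. In sav3-2, 0.175% of all probe sets were called lower and 0.631% higher. At an unadjusted limma p under 0.05, members were 4 lower and 2 higher in Col-0, beside 4.13% and 3.99% of all probe sets. In sav3-2 they were 4 lower and 1 higher, beside 3.86% and 4.48%, and in sav1-1 6 lower and none higher, beside 3.92% and 4.58%.

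UGT88A1 is the only tested member of its numbered family. In Col-0 its levels were 10.12, 10.07 and 9.91 in white light and 9.65, 9.53 and 9.44 after low R:FR. In sav3-2 they were 9.96, 10.21 and 10.17 in white light and 9.94, 9.85 and 9.79 after low R:FR. In sav1-1 they were 10.01, 10.14 and 10.03 in white light and 9.58, 9.56 and 9.68 after low R:FR. Every low R:FR array lay below every white light array of its genotype, and the sav3-2 arrays after low R:FR all lay above those of Col-0 and sav1-1.

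The change of UGT88A1 was -0.49 in Col-0 (SE 0.10, adjusted p = 0.00676), which is 0.712 times the white light level on this scale. In sav1-1 it was -0.45 (SE 0.10, adjusted p = 0.0111). In sav3-2 the difference was -0.25 (95% interval -0.45 to -0.05) and did not pass, at an adjusted p of 0.416. The response in sav3-2 exceeded that in Col-0 by 0.24, with an interval from -0.04 to 0.52, so the smaller difference in sav3-2 was not separated from that in Col-0. After low R:FR, sav3-2 stood 0.32 above Col-0, also without passing (adjusted p = 0.146). With the values as deposited, before any scaling between arrays, the Col-0 difference was -0.66 with an adjusted p of 0.905, and that in sav1-1 was -0.34. The sav1-1 call was lost without its low R:FR array 1 or 2 (adjusted p = 0.0638 and 0.0680) or its white light array 2 (0.0809).

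UGT72B1 adds glucose to chlorinated phenols and to monolignols, the lignin alcohols. In Col-0 its levels were 8.44, 8.86 and 8.72 in white light and 8.26, 8.26 and 7.88 after low R:FR. In sav3-2 they were 8.36, 8.66 and 8.73, then 8.29, 8.33 and 8.58. In sav1-1 they were 8.50, 8.72 and 8.77, then 8.05, 8.00 and 8.24. The groups of the 2 lights were apart in Col-0 and sav1-1 and overlapped in sav3-2.

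UGT72B1 fell by 0.57 in sav1-1 (SE 0.14, adjusted p = 0.0301). In Col-0 the difference was -0.54, of nearly the same size, at an adjusted p of 0.0639. In sav3-2 it was -0.18, with an interval from -0.47 to 0.10. The test of the difference between sav3-2 and Col-0 responses gave 0.35 with an interval from -0.05 to 0.76, so these responses were not separated either, and it was 0.23 without the Col-0 low R:FR array 3. The sav1-1 call was lost as deposited and without an intensity trend in the variance (adjusted p = 0.0628). It was also lost without the sav1-1 low R:FR array 1 or 2 or white light array 2 or 3, at adjusted p of 0.140, 0.169, 0.139 and 0.152, while the Col-0 difference passed without the Col-0 white light array 1 (0.0252) or the sav3-2 one (0.0491).

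UGT72B3 belongs to the same lettered subfamily. Its levels in Col-0 were 5.80, 5.98 and 6.13 in white light and 5.94, 5.42 and 5.71 after low R:FR. In sav3-2 they were 6.14, 6.31 and 6.42, then 6.05, 6.01 and 5.78. In sav1-1 they were 6.29, 6.18 and 6.42, then 5.70, 5.51 and 5.73. The lights were apart in both mutants and overlapped in Col-0, where 1 low R:FR array reached the white light arrays.

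UGT72B3 fell by 0.65 in sav1-1 (SE 0.15, adjusted p = 0.0189), the lowest adjusted p of that gene in any comparison. The differences of -0.28 in Col-0 and -0.34 in sav3-2 did not pass (adjusted p = 0.686 and 0.514), and the former was -0.14 without the Col-0 low R:FR array 2. In white light both mutants had values above all Col-0 arrays, by 0.32 in sav3-2 and 0.33 in sav1-1, at adjusted p of 0.637 and 0.671. Those white light arrays also enter the responses to low R:FR, so the 2 sets of differences are not independent. The sav1-1 call was lost as deposited (adjusted p = 0.726) and without the 6 arrays numbered 3 (0.127). It was also lost without the sav1-1 low R:FR array 1 or 2 or white light array 1 or 3, at adjusted p of 0.0573, 0.129, 0.0579 and 0.116. Across the 18 arrays, which share groups and scaling, UGT72B1 and UGT72B3 correlated at r = 0.71. That was the highest of the 17 pairs that share a letter subfamily but are not neighbours, whose median was -0.03.

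The flavonoid glycosyltransferases UGT78D1 and UGT78D2 were the 2 members whose difference was -0.3 or below in all 3 genotypes, and neither passed in any. UGT78D2 places glucose on flavonols and anthocyanidins. Its levels were 7.21, 7.23 and 7.59 in Col-0 white light and 6.85, 6.99 and 6.87 after low R:FR. In sav3-2 they were 7.53, 7.72 and 7.23, then 6.84, 6.92 and 7.05. In sav1-1 they were 7.13, 7.52 and 7.59, then 6.95, 7.03 and 7.10. The low R:FR arrays lay below the white light arrays in every genotype.

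The UGT78D2 differences were -0.44 in Col-0 (adjusted p = 0.228), -0.56 in sav3-2 (adjusted p = 0.0727) and -0.39 in sav1-1 (adjusted p = 0.308). Same-numbered arrays correlated at only 0.105, 0.126 and 0.248 in the sav3-2 response to low R:FR, which is weak evidence of a pairing. In a fit that blocked on these numbers, the sav3-2 difference of UGT78D2 passed, at an adjusted p of 0.0241. That was the only member called in sav3-2 under the block. It also passed without the white light array 3 of sav3-2 (adjusted p = 0.0270) or of Col-0 (0.0495) or the white light array 1 of sav1-1 (0.0463).

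UGT78D1 places rhamnose on flavonols. Its levels were 7.28, 7.70 and 7.09 in Col-0 white light and 7.32, 6.97 and 6.37 after low R:FR. In sav3-2 they were 7.86, 8.33 and 7.08, then 7.48, 7.38 and 7.13. In sav1-1 they were 7.72, 7.96 and 7.46, then 7.15, 7.17 and 6.88. The lights were apart in sav1-1 alone, and the white light arrays of a group spread widely.

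The UGT78D1 differences were -0.47, -0.43 and -0.65 in Col-0, sav3-2 and sav1-1, the last at an adjusted p of 0.345. The Col-0 difference was -0.21 without its low R:FR array 3 and -0.29 without its white light array 2, and the sav3-2 difference was -0.14 without its white light array 2 and -0.76 without array 3. With the replicate block, the sav1-1 difference passed (adjusted p = 0.0173), which made 4 calls in sav1-1. The other flavonoid members, UGT78D3, UGT79B1 and UGT79B6, were not tested. DFR, an anthocyanin pathway enzyme, was the only tested gene of the flavonoid enzyme list and was not called.

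**Figure D1:**
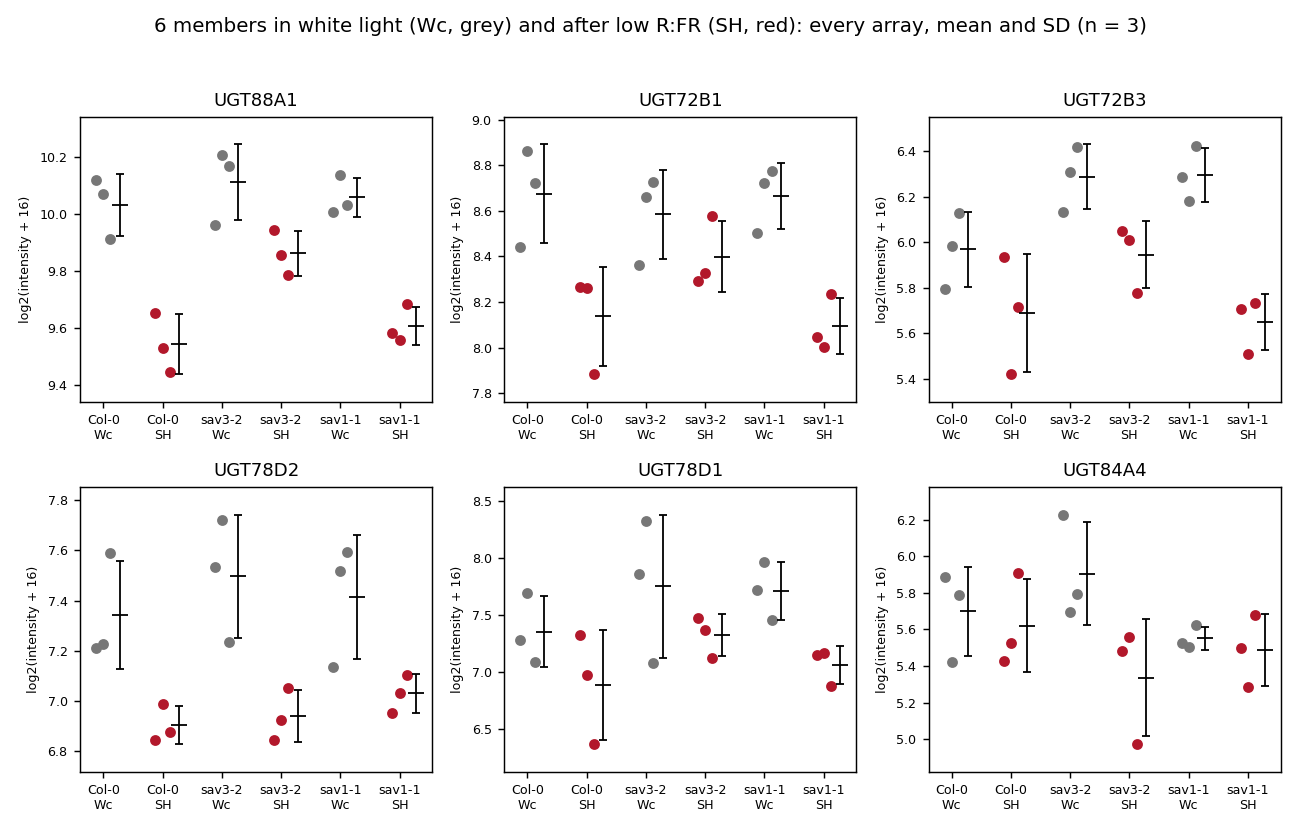
Level of 6 members on every array, in log2(intensity + 16), by genotype and light (n = 3 arrays a group). Points are arrays in replicate order, bars the mean and SD. UGT88A1 and UGT78D2 lie lower after low R:FR than in white light on all arrays of each genotype. For UGT72B1 the 2 lights overlap in sav3-2.

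The hydroxycinnamate and monolignol group held 5 tested members, with 1 called lower in sav1-1 (UGT72B1) and none called elsewhere. Its median differences after low R:FR were -0.08 in Col-0, -0.18 in sav3-2 and -0.06 in sav1-1. UGT84A4 belongs to the enzymes that make glucose esters of hydroxycinnamic acids. Its levels in sav3-2 were 6.23, 5.70 and 5.79 in white light and 5.48, 5.56 and 4.97 after low R:FR, with no overlap. In Col-0 they were 5.89, 5.42 and 5.79, then 5.43, 5.53 and 5.91, and in sav1-1 5.52, 5.50 and 5.62, then 5.50, 5.28 and 5.68, and there the lights overlapped. The sav3-2 difference was -0.57 (SE 0.19) and did not pass, at an adjusted p of 0.294.

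UGT72E1, UGT72E2 and UGT72E3 glucosylate lignin alcohols and aldehydes. Their differences between lights ran from -0.31 to 0.12, and none passed. The lowest, UGT72E3 in sav3-2, had an interval from -0.88 to 0.25, and that gene was above the floor on only 9 arrays. Of the phenylpropanoid enzymes on the list, only the genes carrying the symbols CCOAMT and HCT were tested, and neither was called in any comparison of light or genotype.

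Members acting on hormones gave no call. UGT74D1, which glucosylates auxin and its catabolites, had differences after low R:FR of -0.02 in Col-0, 0.05 in sav3-2 and -0.16 in sav1-1. UGT76C1 and UGT76C2 glucosylate cytokinins on the ring nitrogen. The UGT76C2 difference in sav1-1 was -0.31, with no overlap between lights and an adjusted p of 0.4. UGT71C5, which makes the glucose ester of abscisic acid, stayed between 6.95 and 7.42 on all 18 arrays, with differences of -0.06, 0.00 and 0.01. None of the brassinosteroid members on the list was named by a probe set used here.

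The salicylic acid and defence members UGT74F1, UGT76B1, UGT73B4 and UGT73B5 were all tested and none was called in any comparison. UGT74F1 makes salicylic acid glucoside and was above the floor on 5 arrays. UGT74B1, which acts in making glucosinolates, had differences of -0.19, -0.28 and -0.20 across Col-0, sav3-2 and sav1-1. The sterol glucosyltransferases UGT80A2 and UGT80B1 lay between -0.03 and 0.21 in all 3 genotypes.

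**Figure D2:**
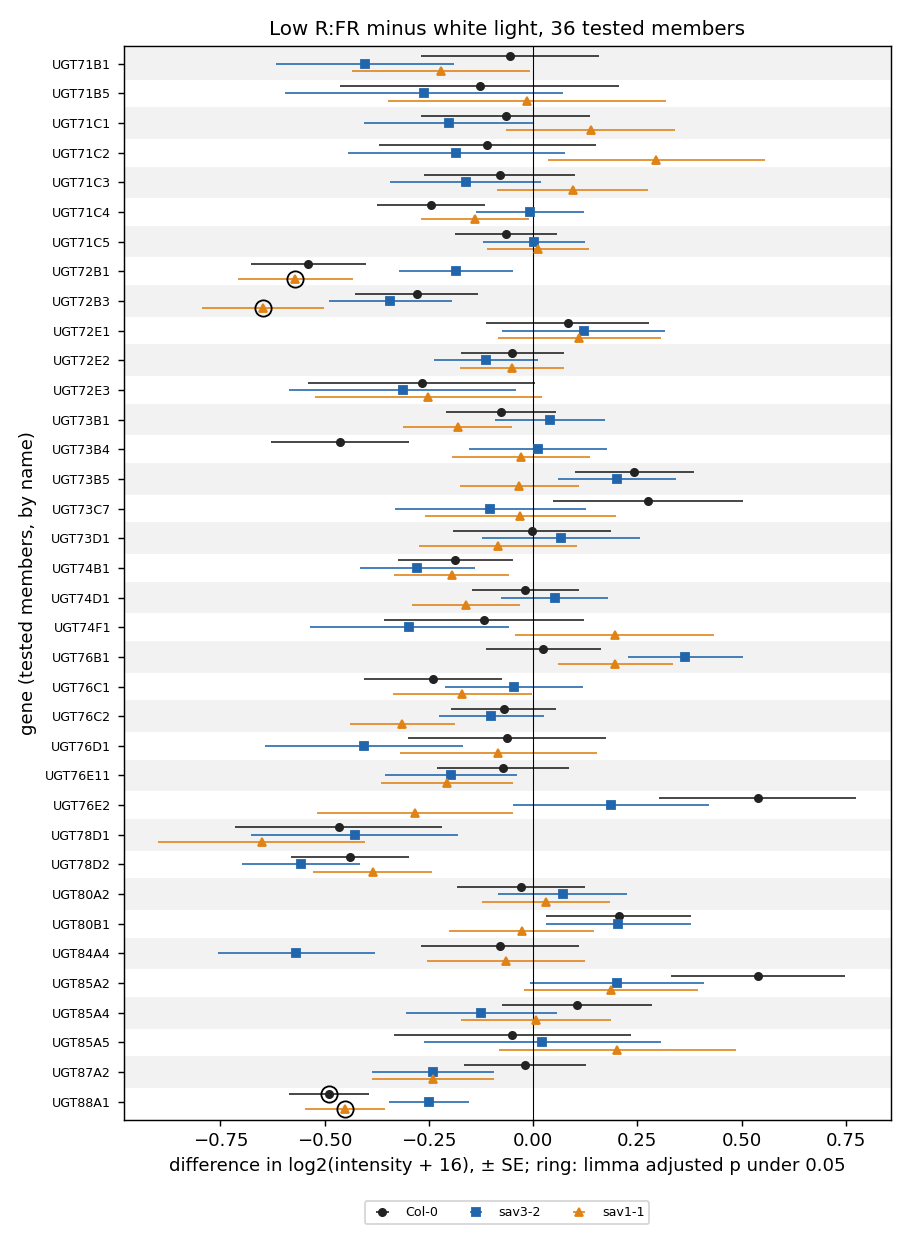
Difference between low R:FR and white light for the 36 tested members in each genotype, in log2(intensity + 16), with the SE from the model. Rings mark an adjusted p under 0.05. The 4 rings are all left of 0, for UGT88A1 in Col-0 and sav1-1 and for UGT72B1 and UGT72B3 in sav1-1.

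More members lay below 0 than above it after low R:FR, 28 of 36 in Col-0, 23 in sav3-2 and 25 in sav1-1. Over all probe sets tested, the share below 0 was 52.7% in Col-0, 51.8% in sav3-2 and 52.7% in sav1-1. The members' median was -0.07 in Col-0, -0.12 in sav3-2 and -0.07 in sav1-1, where the median over all probe sets was -0.01 in each. These are descriptions with no test, and the differences are small beside the range of single members, -0.65 to 0.54. Of the 36 members, 17 were below 0 in all 3 genotypes and 3 above. As deposited, 32, 18 and 21 of 37 members lay below 0, and the median over all probe sets moved to -0.16, 0.11 and 0.06 in Col-0, sav3-2 and sav1-1.

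Members whose arrays did not overlap between lights were 4 lower and 1 higher in Col-0, beside 6.04% and 5.62% of all probe sets. They were 6 lower and 1 higher in sav3-2, beside 6.27% and 6.56%. In sav1-1 they were 7 lower and none higher, beside 7.68% and 7.36%. The higher one was UGT73B5 in Col-0 and UGT76B1 in sav3-2. UGT88A1 and UGT78D2 were apart in all 3 genotypes, and UGT72B1 and UGT72B3 in 2 genotypes each.

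UGT85A2 and UGT76E2 in Col-0 had the largest differences upward, 0.54 each. For UGT85A2 the levels were 7.72, 7.49 and 7.55 in white light and 8.55, 8.20 and 7.64 after low R:FR. Its arrays overlapped, and neither difference passed (adjusted p = 0.419 and 0.544). The UGT85A2 difference fell to 0.33 without the Col-0 low R:FR array 1, but low R:FR array 2 also lay above all Col-0 white light arrays. The UGT76E2 difference depended more on 1 array, and was 0.22 without the Col-0 white light array 1. Under the replicate block the UGT85A2 difference passed (adjusted p = 0.0187). In that comparison the lowest correlation of same-numbered arrays was 0.0714.

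Between genotypes no member was called. In white light, sav3-2 was compared with Col-0 to ask what the mutant changed before shade, and 0.269% of all probe sets were called higher and 0.21% lower. After low R:FR these shares were 0.391% and 0.642%. For sav1-1 against Col-0 they were 0.0292% and 0.0642% in white light and 0.0993% and 0.105% after low R:FR. At an unadjusted limma p under 0.05, 3 members were higher and 1 lower in sav3-2 white light, beside 3.32% and 4.19% of all probe sets. After low R:FR they were 4 and 1, beside 5.5% and 5.36%. For sav1-1 they were 2 higher and 1 lower in white light, beside 3.46% and 3.61%, and 3 and 0 after low R:FR, beside 4.13% and 4.03%.

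Members whose arrays did not overlap those of Col-0 were 4 higher (UGT71B1, UGT72B3, UGT76E11 and UGT85A4) and 2 lower (UGT71C4 and UGT76C1) in sav3-2 white light, beside 5.51% and 5.89% of all probe sets. After low R:FR they were 4 higher (UGT71B1, UGT72B1, UGT76B1 and UGT88A1) and 2 lower (UGT71C1 and UGT73C7), beside 7.8% and 7.53%. In sav1-1 white light 4 were higher (UGT72B3, UGT72E2, UGT73B4 and UGT85A4) and none lower, beside 5.87% and 6.11%. After low R:FR 3 were higher (UGT72E2, UGT73B4 and UGT74F1) and 4 lower (UGT73C7, UGT74D1, UGT76C2 and UGT76E2), beside 7.08% and 7.24%. UGT74F1 was above the floor on 5 of the 18 arrays and UGT73C7 on 7. The separations of these genes, also that of UGT73C7 in sav3-2, therefore lie near the floor. UGT71B1 was the member apart from Col-0 in both lights in sav3-2, by 0.58 in white light and 0.23 after low R:FR, neither of which passed. In sav1-1 these members were UGT72E2 and UGT73B4. The UGT72B3 and UGT85A4 arrays of both mutants lay above those of Col-0 in white light, without a call. Both mutants were set against the same Col-0 arrays, so their separations are not independent.

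The closest to a call was UGT73B4, a defence and detoxification member, in sav1-1 after low R:FR. Its levels were 6.18, 6.35 and 6.08 there against 5.67, 5.07 and 5.74 in Col-0, with no overlap. In white light they were 6.12, 6.24 and 6.34 in sav1-1 against 5.87, 6.03 and 5.97 in Col-0. The sav3-2 levels were 5.54, 5.90 and 6.05 in white light and 5.84, 5.96 and 5.72 after low R:FR. One Col-0 array at 5.07 stood well below its replicates.

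UGT73B4 stood 0.71 above Col-0 in sav1-1 after low R:FR (SE 0.17, interval 0.37 to 1.06) and did not pass, at an adjusted p of 0.0835. In white light the same difference was 0.28. Its response to low R:FR was -0.46 in Col-0, 0.01 in sav3-2 and -0.03 in sav1-1, and the differences between these responses, 0.48 for sav3-2 and 0.43 for sav1-1 against Col-0, did not pass. All of these use the Col-0 low R:FR arrays. Without the low Col-0 array 2, the excess in sav1-1 was 0.50 (adjusted p = 0.398), the Col-0 response -0.25, and the response differences 0.26 and 0.22. Without array 3 of that group the excess was 0.83 and passed (adjusted p = 0.0468).

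UGT72E2, which glucosylates coniferyl alcohol, had 7.88, 8.05 and 7.97 in sav1-1 white light and 7.81, 7.92 and 8.02 after low R:FR. In Col-0 it had 7.56, 7.44 and 7.76, then 7.32, 7.56 and 7.74. In sav3-2 it had 7.72, 7.65 and 7.47, then 7.40, 7.44 and 7.66. The sav1-1 arrays lay above all those of Col-0 in the same light, by 0.38 in each, without passing (adjusted p = 0.413 and 0.314).

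UGT76E11 had 6.41, 6.01 and 6.14 in sav3-2 white light against 5.84, 5.63 and 5.55 in Col-0. Its low R:FR levels were 5.80, 6.12 and 6.04 in sav3-2 against 5.59, 5.82 and 5.40 in Col-0, and these overlapped. In sav1-1 it had 5.89, 5.60 and 5.67 in white light and 5.32, 5.51 and 5.72 after low R:FR. The sav3-2 excess in white light was 0.51 (SE 0.16, adjusted p = 0.277) and after low R:FR 0.39, neither of which passed.

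UGT71C4 lay lower in sav3-2 white light, at 7.34, 7.56 and 7.47, than in Col-0, at 8.09, 7.74 and 7.77. The difference of -0.41 did not pass (adjusted p = 0.293). In low R:FR it had 7.78, 7.64 and 7.43 in Col-0 and 7.61, 7.37 and 7.37 in sav3-2, which overlapped. In sav1-1 it had 7.75, 7.55 and 7.44, then 7.60, 7.34 and 7.39. Its close neighbours on the chromosome, UGT71C3 and UGT71C5, differed by 0.01 each in sav3-2 white light.

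UGT76B1 glucosylates isoleucic acid and salicylic acid. Its levels after low R:FR were 7.77, 7.54 and 7.55 in sav3-2, 7.46, 7.88 and 7.66 in sav1-1, and 7.16, 7.50 and 7.13 in Col-0. In white light it had 7.28, 7.38 and 7.10 in sav3-2, 7.25, 7.45 and 7.70 in sav1-1, and 7.15, 7.30 and 7.28 in Col-0. The low R:FR arrays of sav3-2 lay above those of Col-0, and those of sav1-1 overlapped them. The differences from Col-0, 0.35 and 0.40, did not pass (adjusted p = 0.321 and 0.368).

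**Figure D3:**
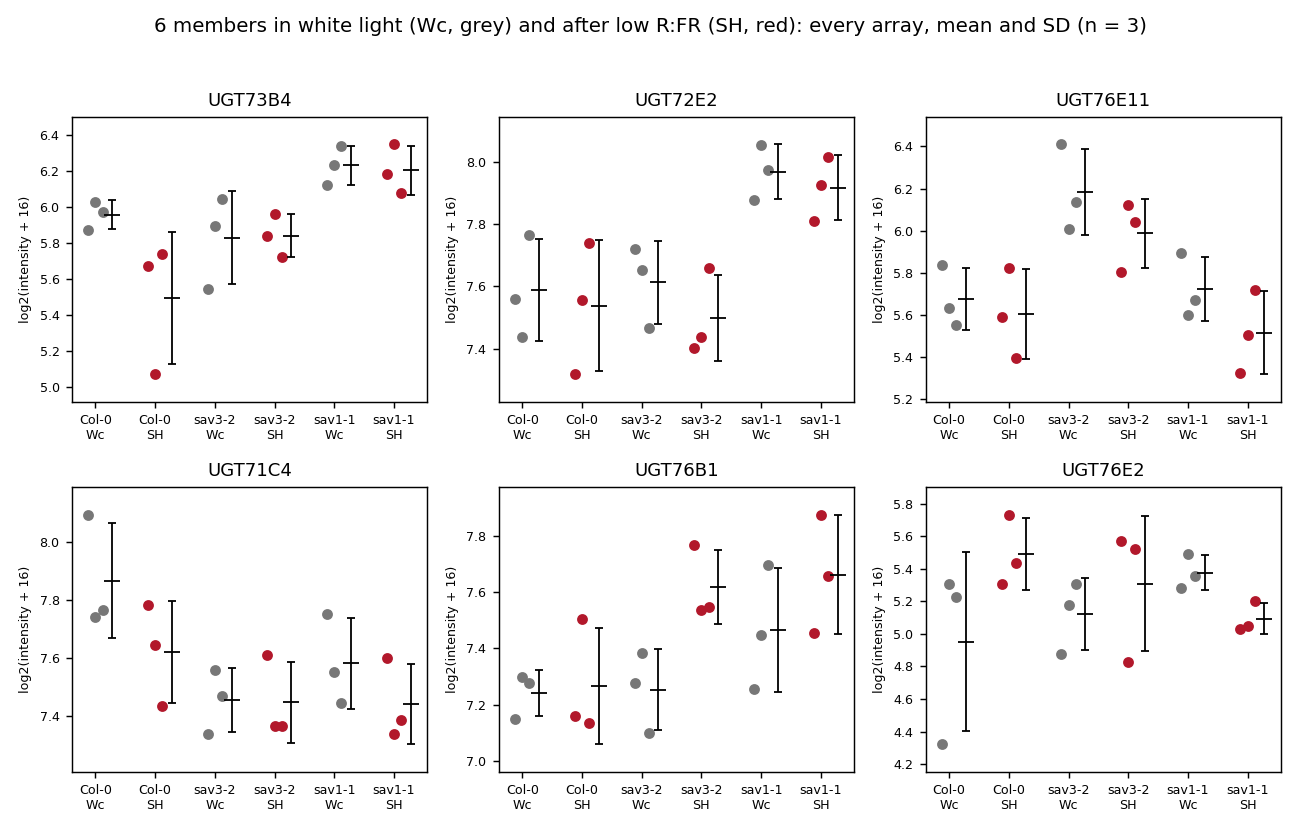
Level of 6 members on every array, in log2(intensity + 16), by genotype and light (n = 3 arrays a group). Points are arrays in replicate order, bars the mean and SD. UGT72E2 lies higher in sav1-1 than in Col-0 in both lights, and UGT76E11 higher in sav3-2 than in Col-0 in white light, and no difference passed the test.

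**Figure D4:**
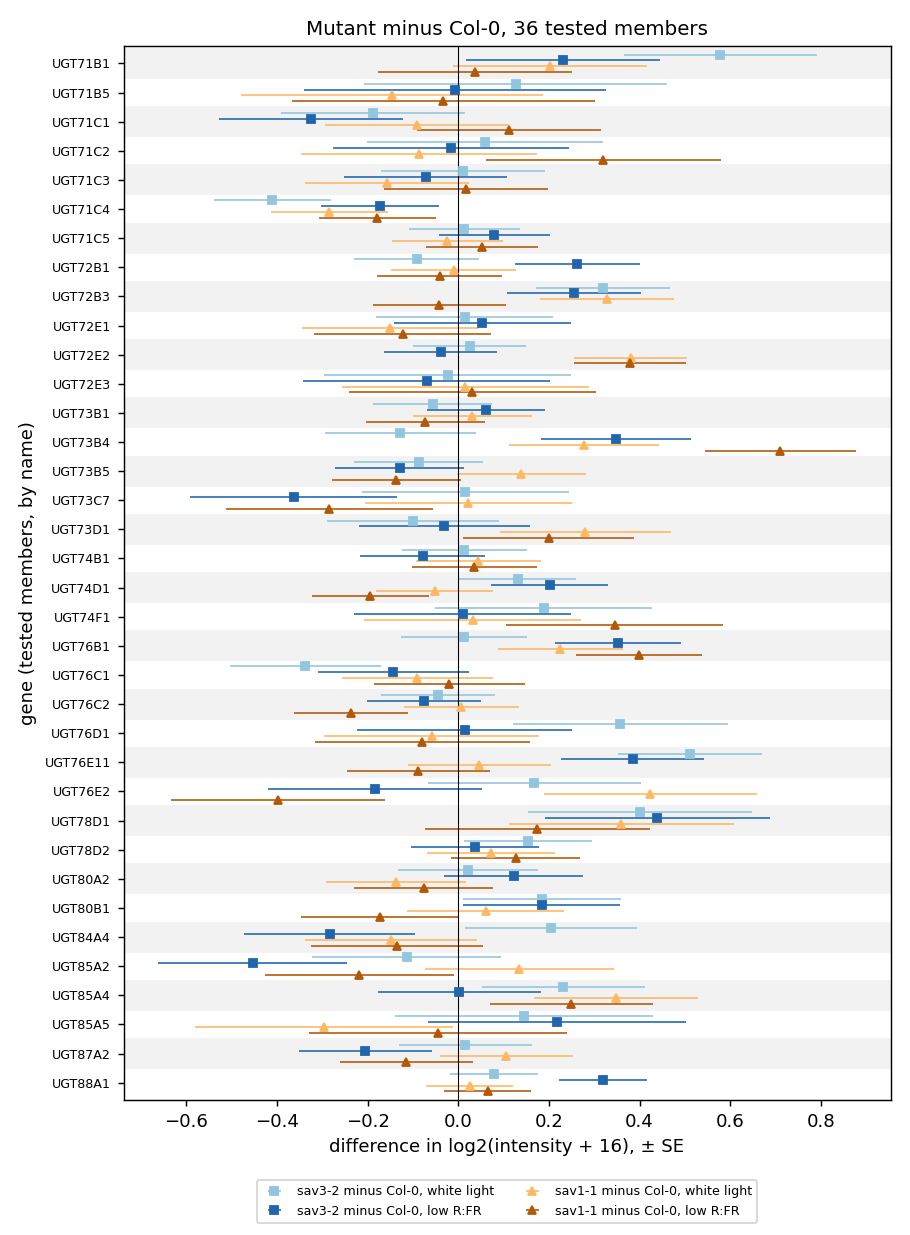
Difference of each mutant from Col-0 for the 36 tested members in each light, in log2(intensity + 16), with the SE from the model. UGT73B4 in sav1-1 after low R:FR lies furthest right, at 0.71. No member had an adjusted p under 0.05.

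No member's response to low R:FR differed between genotypes after adjustment. The smallest adjusted p among the members was 1.00 to 2 decimals in each of the 3 tests of response differences, and 1 member was past an unadjusted p of 0.05. That was UGT76E2, in sav1-1 against Col-0. It had 4.32, 5.31 and 5.23 in Col-0 white light and 5.30, 5.73 and 5.44 after low R:FR, where the first white light array was far below the others. In sav1-1 it had 5.28, 5.49 and 5.36, then 5.03, 5.05 and 5.20, and in sav3-2 4.88, 5.18 and 5.31, then 5.57, 4.83 and 5.52. The difference of responses was -0.82 (SE 0.33, interval -1.51 to -0.13), and -0.51 (SE 0.29) without that Col-0 array. Over all probe sets, 0.0409% were called lower and 0% higher for sav3-2 minus Col-0, 0% in either direction for sav1-1 minus Col-0, and 0% lower and 0.0409% higher for sav1-1 minus sav3-2. At an unadjusted limma p under 0.05 the shares lower and higher were 1.79% and 2.19% for sav3-2 minus Col-0, 1.15% and 1.37% for sav1-1 minus Col-0, and 1.33% and 1.78% for sav1-1 minus sav3-2.

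UGT genes often lie side by side on a chromosome, as copies of each other. Of the 51 members, 31 lie in 13 clusters of UGT genes at most 3 protein-coding genes apart. The 8 neighbouring pairs with both genes tested correlated across the 18 arrays at a median r of -0.03, from -0.25 to 0.52. The 17 pairs that share a letter subfamily but are not neighbours had the same median of -0.03, from -0.47 to 0.71, and all 630 pairs of members had a median of 0.03, from -0.67 to 0.84. Arrays share groups and scaling, so these r values are descriptions.

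Other enzyme families that handle the same kinds of molecules gave 1 call in these comparisons. Of 12 tested glutathione S-transferases, which conjugate glutathione to foreign and stress-made compounds, none was called in a response to light or a comparison of genotypes. Over all probe sets, the shares called in a direction in those comparisons ran from 0.0292% to 1.38%. No call among 12 genes is near such shares. Of 12 tested beta-glucosidases, which remove sugars, BGLU19 alone was called, at -1.11 in sav3-2 against Col-0 in white light (adjusted p = 0.037). In that comparison 0.21% of all probe sets were called lower and 0.269% higher. The genes of UDP-glucose supply on the list were not named alone by a probe set used here.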

How the data were processed

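RNA was measured on 18 Affymetrix arrays. The deposited intensity values are linear, 1 per probe set and array, and per the submitters' processing notes GCRMA was used. Its version and settings are not given in the sources used here. Array medians ran from 34.4 to 65.6, so the values were taken as not on a common scale and were quantile normalized. This hides changes that move most genes one way. The 64 control probe sets were dropped. Probe sets with log2 above 4 on at least 3 of 18 arrays were kept, 17125 of 22746, and all 18 arrays entered 1 model of group means on log2(value + 16), in limma 3.58.1 in R 4.3.3, with an intensity trend and Benjamini-Hochberg adjustment. The p-values rest on the spread between replicate arrays within groups, pooled over all 6 groups and moderated across probe sets. The number of 3 arrays a group limits the precision.

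Of the 22746 probe sets, 13513 named 1 gene, 503 several and 8730 none. TAIR10.1 supplied names and gene order. Members named in full were those called and the 2 with the largest moderated t in each comparison. UGT78D1 and UGT85A2 were added after their values were seen. The members, lists and tests were chosen with earlier results of these data known. Simulated data for the Col-0 response on 17125 probe sets gave 91 of 100 genes recovered at a log2 change of 1 and 44 of 100 at 0.5. The changed genes were drawn from the brighter probe sets only, and the simulated noise was independent between arrays. These shares do not describe the dimmer members. Same-numbered arrays deviated together, with all 3 correlations over 0.1, in sav3-2 and sav1-1 responses to low R:FR, in sav3-2 against Col-0 in both lights and in sav1-1 against Col-0 in white light. In the Col-0 response and in sav1-1 against Col-0 after low R:FR the lowest correlations were 0.0714 and 0.0963. The others were 0.171 and 0.290 in the Col-0 response, and 0.214 and 0.335 in that sav1-1 comparison. A cut at 0.1 therefore does not show that the numbers of these comparisons are unpaired. Nor does it show that those of the other comparisons are paired, since the lowest correlation in the sav3-2 response was 0.105.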

Additional observations from a re-analysis of the deposited data

How the results depend on the processing

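Across 28 alternatives none of the 21 differences that the naming rule chose changed direction, a count that does not cover the other differences in the text. In 5 of the 10 comparisons the count of called members stayed at 0 in all 28. In the Col-0 response to low R:FR, 1 call was made, against 0 as deposited, 3 with the replicate block, 2 with array weights and 1 to 2 with 1 array left out. In sav3-2 the count of 0 became 1 with the replicate block, 1 with array weights, 1 without the arrays numbered 3 and 0 to 1 with 1 array left out (UGT78D2). In sav1-1 the count of 3 became 0 as deposited and 0 to 3 with 1 array left out: 0 without the low R:FR array 1 or 2, 1 without the white light array 2 or 3 and 2 without the white light array 1. It became 4 with the block (UGT78D1 added) and 4 with array weights (UGT78D2 added, adjusted p = 0.0374), and stayed 3 without the arrays numbered 3, with UGT78D1 (0.0449) in place of UGT72B3. In sav1-1 against Col-0 the count of 0 became 1 with array weights in white light (UGT72E2), and after low R:FR 1 with the block, 1 with array weights and 0 to 1 with 1 array left out, without the Col-0 array 3 (UGT73B4). The cause of these changes was not tested, and leaving out arrays removed some calls and added others. The Col-0 call of UGT88A1 held in 27 of 28 alternatives. In the Col-0 response and in sav1-1 against Col-0 after low R:FR, the lowest correlation of same-numbered arrays was under 0.1. In those block fits UGT72B1 (adjusted p = 0.0149) and UGT85A2 (0.0187, higher) were added in Col-0 and UGT73B4 (0.0356) in sav1-1 after low R:FR. Beside these and the calls of UGT78D2 in sav3-2 and UGT78D1 in sav1-1, the block changed no call. Without the filter the calls were the same. Each gene had 1 probe set, so using all member probe sets changed nothing. The 15 dim members did not pass the filter, and the cause of their low signal was not tested.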
